A study of Mus musculus with 20 samples.

Results

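The lungs of mouse dams given a medium total dose of carbon black were compared with the lungs of dams given a low total dose. The arrays were chosen by their titles, 5 medium and 5 low, which makes 10 of the 20 arrays in the series. Medium dams received 54 µg in all, in instillations of 13.5 µg, and low dams received 11 µg in all, in instillations of 2.75 µg. Every dam of both groups was a time-mated female C57BL/6BomTac mouse with no engineered allele named in the labels, and both groups received Printex 90 carbon black in water through the trachea during pregnancy, gave birth and nursed a litter. There were 4 instillations per dam. The design text puts the first of them on gestational day 7 and the others on days 10, 15 and 18, whereas the treatment protocol names days 10, 13, 15 and 18. Lungs were taken after weaning, 26 to 27 days after exposure, so the arrays show the late state of the tissue and not the first days. The other groups of the series, a high dose of 268 µg and a water control, each had 5 dams as well and enter here only through the shared estimate of the spread and as context. The water control arrays play no part in the difference between medium and low. Whole lung was measured, so fewer cells of a type and less RNA per cell cannot be told apart.

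Carbon black particles that reach the alveoli are taken up mainly by alveolar macrophages, which can call in neutrophils through CXC chemokines and monocytes through CC chemokines. The lung itself makes the acute phase protein SAA3 after particle exposure. Soot-like particles can also carry aromatic compounds on their surface, which bind the aryl hydrocarbon receptor, a transcription factor that switches on Cyp1a1, the gene of an enzyme that oxidises such compounds.

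Each dam had one two-colour Agilent array, with lung RNA in Cy5 and a universal mouse reference RNA in Cy3. The value used throughout, M, is the log2 of the lung signal over that of the reference, from the deposited value table, in which no background was subtracted. An M above zero means more signal from lung than from the reference RNA, and the ratio of 1 probe says nothing about the level of another gene. Differences are medium minus low on the log2 scale and come from limma's moderated test over all 20 arrays, with p-values adjusted over all 19688 genes by the Benjamini-Hochberg method and a threshold of 0.05. Medium and low arrays overlapped in quality: 69.7% ± 4.72 of probes lay well above background on medium arrays and 73.0% ± 2.33 on low arrays (SD, n = 5 each, exact two-sided permutation p = 0.222). Correlations between any 2 of the 10 arrays lay between 0.957 and 0.988. Slides 1 to 3 held both groups. Low dams 31 and 36 were on slides 4 and 5, which held no medium array. The medium dams 49 and 50 shared a slide of their own, scanned on a separate day. Its file headers name another version of the Feature Extraction software and another genome build (mm8, against mm7 elsewhere). For those dams slide and dose cannot be told apart. In fits with slide or scan day as a fixed block, those dams add nothing to the difference, much as when they are left out. The defining lung markers fixed for alveolar type 2 and type 1 cells, club cells, ciliated cells, endothelium and alveolar macrophages were all measured, among them Sftpc at 4.85 ± 0.38 in medium dams and 4.82 ± 0.43 in low dams (SD, n = 5 each).

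No gene passed the test. limma called 0 of 19688 genes higher and 0 lower in medium dams, a share of 0% each, and the lowest adjusted p was 0.997. At an unadjusted p under 0.05 there were 469 genes higher (2.38% of those tested) and 264 lower (1.34%). The median 95% interval of a gene reached 0.16 to either side of its difference, and for 96.5% of genes the whole interval lay inside a 1.5-fold change. On simulated arrays with the same genes and spread, the same test found 80 of 100 genes changed by 0.5 and 99 of 100 changed by 1 on the log2 scale. It also called 11 unchanged genes. Both sets were changed together, and the noise was independent between genes and arrays, without slide or tissue effects. Recovery with fewer changed genes or with such effects was not tested, so these shares do not carry over to the dams. The median gene differed by 0.05 in size between the groups. All values below are therefore descriptions of genes and groups that did not pass, with the background of all genes beside them.

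Cyp1a1, the target gene of the aryl hydrocarbon receptor named above, had the clearest difference among the genes of the pathways examined. Its M was 0.89, 1.19, 0.77, 0.72 and 0.59 in medium dams 46, 47, 48, 49 and 50, against 1.99, 1.75, 1.07, 1.58 and 1.87 in low dams 25, 27, 28, 31 and 36. Only low dam 28 reached into the range of the medium dams. The difference was -0.82 ± 0.19 (SE; 95% interval -1.22 to -0.43), a ratio of 0.565, with an unadjusted p of 0.000299 and a limma adjusted p of 0.997. Medium lay below low on each of the 3 shared slides, by -1.11, -0.56 and -0.30. Here and below, the shares over all genes are 10.5% lower and 11.9% higher on all 3. Those slides hold 6 of the same 10 arrays, so their signs are not separate evidence. Set in order of dose, Cyp1a1 averaged 1.45 ± 0.35 in control dams, 1.66 ± 0.36 in low dams, 0.83 ± 0.23 in medium dams and 0.94 ± 0.34 in high dams (SD, n = 5 each). Control and low dams lay within their spread of each other, as did medium and high dams. Leaving out low dam 28 gave -0.97 with an adjusted p of 0.615, the lowest of any setting tried.

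The other genes of this pathway did not move with Cyp1a1 to the same extent. Of 16 measured genes on the aryl hydrocarbon receptor list, 0 passed, 10 lay below zero and Cyp1a1 alone had an unadjusted p under 0.05. The list median was -0.10, beside 0.01 over all genes. Ahr, the receptor itself, differed by -0.26 ± 0.12, and Cyp1b1, the gene of a related enzyme, by -0.11 ± 0.20 (SE, n = 5 each). Outside that list, Aox1, an aldehyde oxidase that handles foreign and endogenous aldehydes, was fully separated. It had 1.73, 1.69, 1.49, 1.65 and 1.20 in medium dams against 1.82, 1.81, 1.92, 1.86 and 1.98 in low dams. The difference was -0.33 ± 0.10 (SE; unadjusted p = 0.00436, limma adjusted p = 0.997).

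The promoter of Cyp1a1 is shown because it is the gene with the clearest difference in this pathway. Capitals mark the letters GCGTG, the core bound by the aryl hydrocarbon receptor, searched on both strands. The window runs from 250 bases before the start site to 50 bases after it, on the plus strand at chr9:57697363-57697662 (GRCm38.p6, from RefSeq), and the match begins 54 bases before the start site.
Cyp1a1 promoter: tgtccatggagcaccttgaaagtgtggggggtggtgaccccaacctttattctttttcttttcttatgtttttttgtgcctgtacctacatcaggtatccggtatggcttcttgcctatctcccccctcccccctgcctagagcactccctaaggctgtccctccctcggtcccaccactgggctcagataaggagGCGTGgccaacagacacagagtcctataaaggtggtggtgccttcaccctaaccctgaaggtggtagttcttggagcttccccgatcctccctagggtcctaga
The same core occurs in 32.4% of the 32851 promoters of that table, and in 7 of the 15 genes of the list that have a promoter there. A match of these letters is a description and not evidence of binding.

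**Figure D1:**
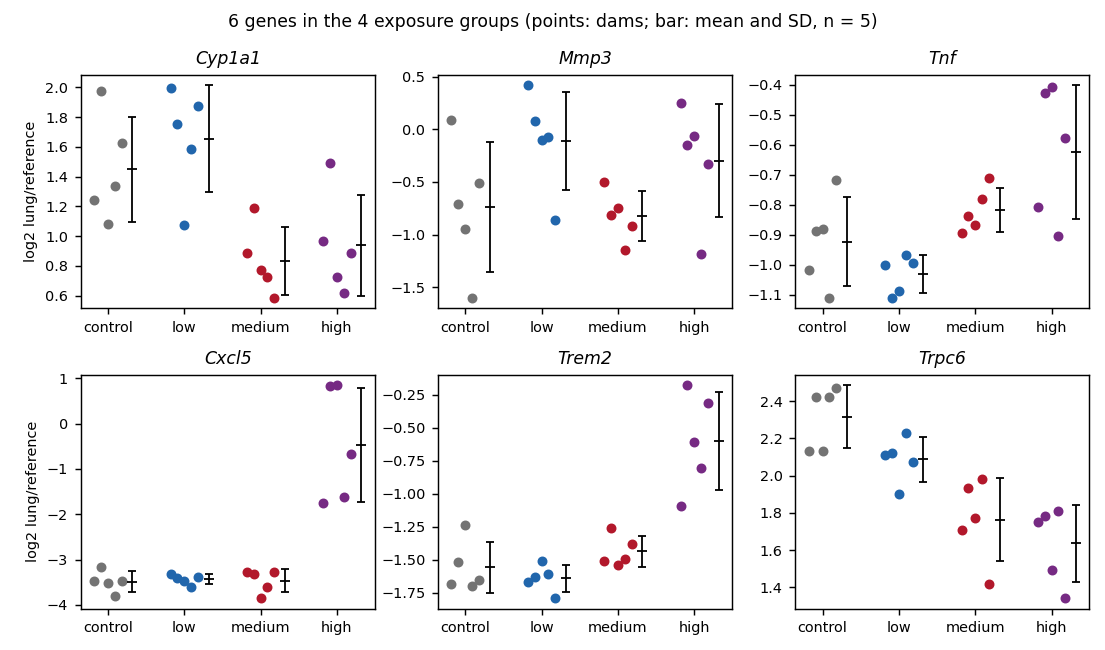
M (log2 lung over reference, y axes) of 6 genes in control, low, medium and high dams (x axes, in order of dose); points are dams, bars the mean and SD of 5 dams. Medium dams lie mostly below low dams for Cyp1a1, Mmp3 and Trpc6 and above them for Tnf, none past the adjusted threshold, while Cxcl5 stands apart only in the high dams.

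Genes whose 5 medium arrays all lay on one side of the 5 low arrays were few: 88 above (0.447% of genes) and 36 below (0.183%). The 12 named above and 11 named below, taken from those of smallest p with a gene symbol, differed by 0.35 or less in size. Gngt2, a G protein gamma subunit known from cone photoreceptors, had M of 1.35, 1.35, 1.43, 1.46 and 1.52 in medium dams against 1.21, 0.87, 1.14, 1.19 and 1.18 in low dams. Its difference was 0.30 ± 0.08 (SE; unadjusted p = 0.00106), and its medium dams were close together. Sat1, which acetylates polyamines as the first step of their breakdown, had 0.87, 0.85, 0.75, 1.04 and 0.94 in medium dams against 0.64, 0.57, 0.54, 0.61 and 0.45 in low dams, a difference of 0.33 ± 0.09 (SE; unadjusted p = 0.00125). Il18bp encodes a secreted protein that neutralises interleukin 18. It had 0.74, 0.98, 0.75, 1.09 and 0.81 in medium dams against 0.66, 0.46, 0.62, 0.60 and 0.55 in low dams, while Il18 itself differed by 0.22 ± 0.13 (SE) with overlapping groups.

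Cd3e, a chain of the T cell receptor complex, lay above as well, with -0.47, -0.32, -0.37, -0.29 and -0.29 in medium dams against -0.54, -0.61, -0.49, -0.52 and -0.47 in low dams, the top low dam just under the lowest medium dam. Of the 25 measured T cell genes, however, 15 lay above zero and 10 below, with a median of 0.02. The others above were Ankrd2, a muscle ankyrin repeat protein, Dennd1b (listed as 4930467M19Rik), a regulator of membrane traffic, Ttll11, a tubulin-modifying enzyme, Robo3, an axon guidance receptor, B4galnt4, a sugar transferase, Lrrc3, 1700120K04Rik and 4930432K21Rik, with differences between 0.16 and 0.35. For Robo3 3 of the 5 medium arrays were well above background.

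On the lower side stood Rev3l, the catalytic subunit of a DNA polymerase that copies past damaged bases, with -0.28, -0.19, -0.40, -0.16 and -0.29 in medium dams against 0.05, -0.12, -0.08, -0.03 and 0.11 in low dams, a difference of -0.25 ± 0.08 (SE; unadjusted p = 0.00836). Nfat5, the transcription factor of the response to hypertonic stress, differed by -0.20 ± 0.06 (SE; unadjusted p = 0.00459). Cspg4, a proteoglycan of pericytes, differed by -0.20 ± 0.07, and Pam, which amidates peptide hormones, by -0.18 ± 0.06 (SE). The remaining names were Kifbp (listed as 2510003E04Rik), Nsmaf, Zfp14, Zfp971 (listed as Etohi1), 4921504A21Rik and Kcnj5, a potassium channel that was well above background on 1 medium and 3 low arrays.

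**Figure D2:**
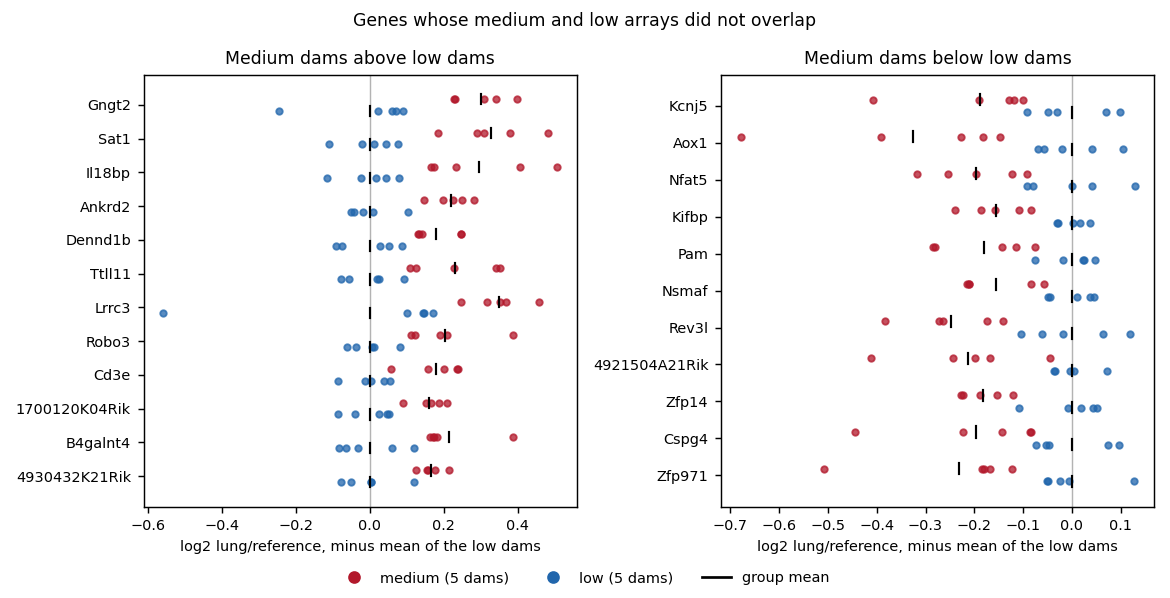
M minus the mean of the low dams (x axis, log2) for 12 genes lying above and 11 lying below in medium dams (rows); red points are the 5 medium dams, blue points the 5 low dams, black ticks the group means. No row has overlapping colours, and all mean differences are 0.35 or smaller in size.

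Chemokine and cytokine lists had medians near zero. Of 6 neutrophil chemokine genes, 21 monocyte and lymphocyte chemokine genes and 21 inflammatory cytokine genes measured, 0 passed, and each list had a median of 0.03. Tnf, the cytokine released early by activated macrophages, was separated, with -0.89, -0.84, -0.87, -0.78 and -0.71 in medium dams against values between -1.11 and -0.97 in the 5 low dams. Its difference was 0.21 ± 0.09 (SE; unadjusted p = 0.0244, limma adjusted p = 0.997), with medium above on 3 of 3 shared slides. In order of dose Tnf averaged -0.92 ± 0.15 in control, -1.03 ± 0.06 in low, -0.82 ± 0.07 in medium and -0.63 ± 0.22 in high dams (SD, n = 5 each), and control dams reached into both of the compared groups. Cxcl10, a ligand that draws T cells, had -0.77, -0.61, -0.80, -0.82 and -0.74 in medium dams against -0.98, -1.42, -1.26, -0.88 and -0.96 in low dams, a difference of 0.35 ± 0.23 (SE; unadjusted p = 0.141). The low dams were the more spread of the pair. Ccl11, which attracts eosinophils, ran the other way at -0.36 ± 0.18, and Ccl17, which attracts T helper cells, at -0.30 ± 0.19 (SE), both with overlapping groups. Nfkbia, the inhibitor that NF-kappaB induces to end its own signal, differed by 0.23 ± 0.11 (SE).

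Macrophage lists had medians above zero, by small amounts that were lower without medium dams 49 and 50. On the list of particle-laden macrophage genes 28 of 34 lay above zero, with a median of 0.11, and on the list of alveolar macrophage identity genes 10 of 13 lay above zero, with a median of 0.12, while over all genes 52.9% lay above zero. Tyrobp, the adaptor chain that carries signals of TREM receptors, had 1.90, 2.04, 1.73, 1.90 and 2.02 in medium dams against 1.68, 1.40, 1.81, 1.79 and 1.84 in low dams, a difference of 0.21 ± 0.10 (SE; unadjusted p = 0.0406). It was the only one of the 34 with an unadjusted p under 0.05. Chil3 (listed as Chi3l3), a chitinase-like protein secreted by alveolar macrophages, had 5.79, 5.47, 5.85, 6.62 and 6.79 in medium dams against 5.79, 5.17, 5.78, 5.81 and 5.74 in low dams. Its high values were those of medium dams 49 and 50 on the separate slide, and on the 3 shared slides it differed by -0.00, 0.30 and 0.07. Arg1, an enzyme of alternatively activated macrophages, differed by -0.26 ± 0.15 and Mrc1, the mannose receptor, by 0.16 ± 0.12 (SE). With slide as a fixed block the median of the particle-laden list was 0.04 and that of the identity list was -0.08. The identity list mean differed by -0.10, -0.09 and 0.03 on the 3 shared slides, and its median was -0.09 without medium dams 49 and 50.

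Interferon-stimulated genes had a median of 0.06, with 28 of 37 above zero (52.9% over all genes). The list mean was 0.70, 0.73, 0.57, 0.71 and 0.59 in medium dams against 0.66, 0.40, 0.51, 0.73 and 0.69 in low dams. Only low dams 27 and 28 lay below the medium dams. On the 3 shared slides the list mean differed by 0.04, 0.33 and 0.06, and the list median changed sign under 3 of 31 alternatives. Psmb8 and Psmb9, subunits of the immunoproteasome that cuts peptides for antigen presentation, differed by 0.18 ± 0.08 and 0.17 ± 0.07 (SE; unadjusted p = 0.0275 and 0.0329) and lay above on all 3 shared slides. The natural killer list had its median at -0.01, with 10 of 22 genes above zero. Klrd1, the CD94 receptor chain, had 3.26, 3.32, 3.69, 3.48 and 3.30 in medium dams against 3.49, 3.52, 3.84, 3.78 and 3.77 in low dams, a difference of -0.27 ± 0.13 (SE), and lay below on each shared slide. Ncr1, an activating receptor, differed by -0.21 ± 0.12 and Klra7, a Ly49 receptor, by -0.25 ± 0.14 (SE). The Ly49 genes are near-identical copies, so the probe may read more than 1 of them. Siglech, a marker of plasmacytoid dendritic cells, had 0.23, 0.31, 0.25, 0.45 and 0.20 in medium dams against 0.46, 0.35, 0.45, 0.42 and 0.42 in low dams, a difference of -0.13 ± 0.05 (SE; unadjusted p = 0.0243).

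The remaining immune lists stayed near the background. Medians were 0.03 for B and plasma cells, 0.07 for neutrophil granule genes, 0.08 for eosinophil and mast cell genes, and 0.02 each for complement and dendritic cell genes. Ngp, a neutrophil granule protein, differed by -0.31 ± 0.26, and Jchain (listed as Igj), the chain that links secreted antibodies, by -0.26 ± 0.36 (SE). Ear6, an eosinophil-type ribonuclease also made by macrophages, differed by 0.16 ± 0.10, with paralogs that share sequence.

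**Figure D3:**
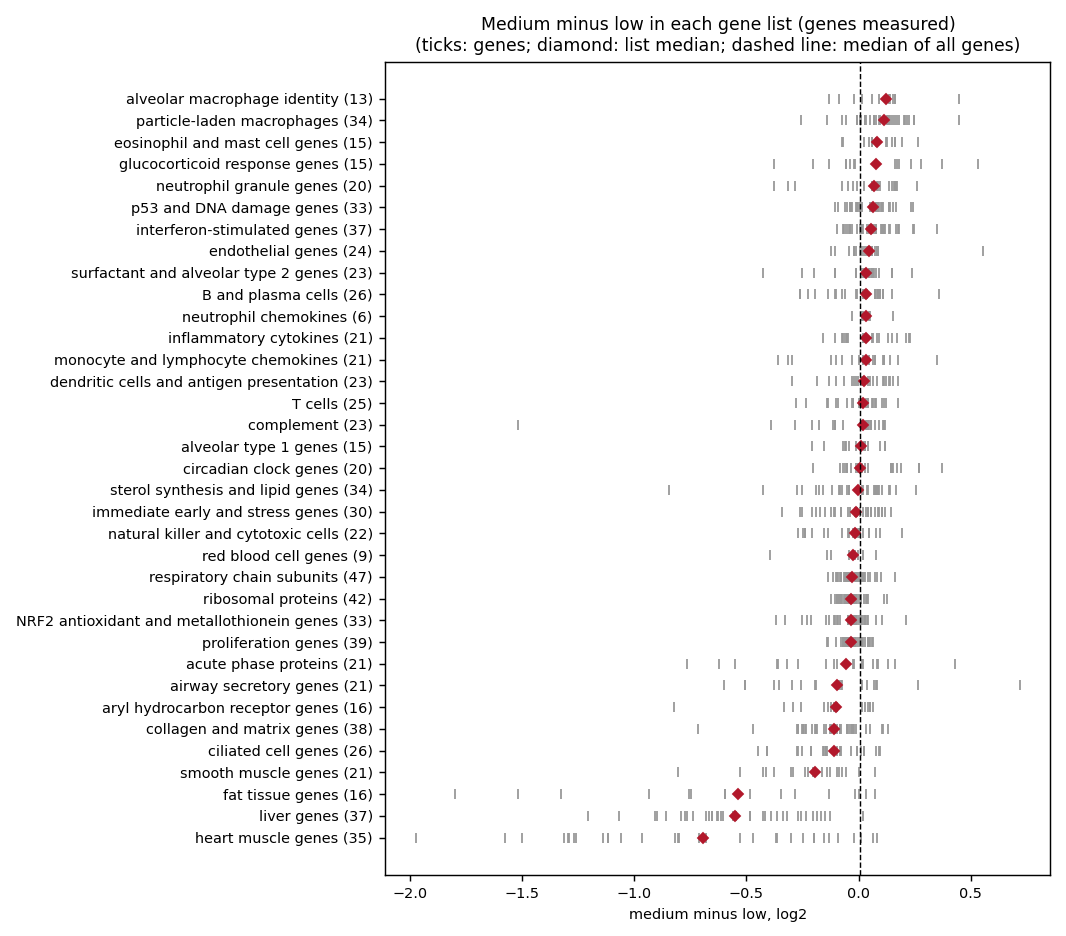
Medium minus low (x axis, log2) for every measured gene of each list (grey ticks) with the list median (red diamond); rows are lists with the number of genes measured, and the dashed line is the median over all genes, 0.01. Most medians lie close to the line, and heart muscle, liver and fat genes lie lowest, at -0.69, -0.55 and -0.54.

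Genes of stress and metabolism gave small values. Of 33 NRF2 antioxidant and metallothionein genes 0 passed, and the median was -0.03. At an unadjusted p under 0.05, 2 of them were lower and 1 higher (1.34% and 2.38% over all genes). Ces1g (listed as Ces1), a carboxylesterase, differed by -0.37 ± 0.16 and Gsr, glutathione reductase, by 0.21 ± 0.10 (SE; unadjusted p = 0.0313 and 0.0469). Of 33 p53 and DNA damage genes 22 lay above zero (52.9% over all genes), with a median of 0.07. Ddit4, an inhibitor of mTOR signalling, differed by 0.23 ± 0.12 and Pmaip1, a trigger of apoptosis, by 0.25 ± 0.12 (SE), each above on 3 of 3 shared slides. Bhlhe41 (listed as Bhlhb3), a repressor in the circadian clock, differed by 0.27 ± 0.12 (SE; unadjusted p = 0.0331) within a clock list whose median was 0.01. Respiratory chain genes had a median of -0.03, with Atp5c1 at -0.13 ± 0.05 and Uqcrc1 at 0.16 ± 0.06 (SE), and ribosomal protein genes had a median of -0.03, with Rpl10 at -0.12 ± 0.06 and Rpl19 at -0.10 ± 0.05 (SE).

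Epithelial and endothelial lists had medians within 0.11 of zero. The median was 0.04 for the surfactant and alveolar type 2 list, 0.01 for alveolar type 1 genes and 0.05 for endothelial genes, whereas it was -0.09 for airway secretory and -0.11 for ciliated cell genes. Scd1, which desaturates fatty acids for surfactant lipids, differed by -0.42 ± 0.20 (SE; unadjusted p = 0.0449), and Sema3e, a guidance cue, by -0.21 ± 0.10 (SE; unadjusted p = 0.0479). Scgb3a1, a secretoglobin of large airways, had 4.09, 3.23, 2.18, 2.64 and 2.55 in medium dams against 4.06, 3.91, 2.82, 2.79 and 3.65 in low dams, and Gabrp differed by -0.50 ± 0.27 (SE). Spag16, a protein of the ciliary axoneme, differed by -0.45 ± 0.21 (SE; unadjusted p = 0.0502). Clca1 (listed as Clca3), a goblet cell protein, had 5.42, 2.13, 0.39, 0.58 and 0.44 in medium dams against 1.89, 0.47, 0.37, 1.20 and 1.42 in low dams. Medium dam 46 stood far above every other dam of both groups for that gene. Cdh5, the junction protein of endothelial cells, had 5.80, 5.50, 5.45, 6.22 and 6.23 in medium dams against 5.78, 6.10, 5.45, 3.51 and 5.57 in low dams, so that its difference of 0.56 ± 0.34 (SE) was 0.12 without low dam 31.

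Matrix genes leaned below zero, with 33 of 38 below and a median of -0.11, while 52.9% of all genes lay above zero. The list mean was -0.04, -0.07, -0.05, -0.11 and -0.16 in medium dams against 0.25, 0.05, 0.10, -0.07 and -0.11 in low dams. Low dams 31 and 36 thus lay within the range of the medium dams. The list median ranged from -0.16 to 0.03 over 31 alternatives and changed sign under 1 of them. Mmp3, stromelysin 1, which degrades matrix proteins, had -0.50, -0.81, -0.75, -1.15 and -0.92 in medium dams against 0.42, 0.07, -0.10, -0.07 and -0.86 in low dams, where low dam 36 alone lay among the medium dams. The difference was -0.72 ± 0.28 (SE; unadjusted p = 0.0189, limma adjusted p = 0.997), and on the shared slides it was -0.92, -0.89 and -0.64. In order of dose Mmp3 averaged -0.73 ± 0.62 in control, -0.11 ± 0.47 in low, -0.82 ± 0.24 in medium and -0.30 ± 0.54 in high dams (SD, n = 5 each), which follows no order of dose. Col18a1, a basement membrane collagen, differed by -0.23 ± 0.10 (SE; unadjusted p = 0.0322).

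The largest differences in size belonged to genes of heart muscle, fat and liver. Of the 20 genes that differed by more than 1 on the log2 scale all lay lower in medium dams, and 17 were on the lists for those tissues. Of the 20, 4 had an unadjusted p under 0.05. The 3 skeletal muscle markers also lay lower, with a median of -0.43, and 2 of them passed the filter through the low arrays alone. Of the 38 heart muscle genes 35 passed the filter on dim probes, 4 of them through the low arrays alone, and the 35 had a median of -0.69. Well above background were 35, 32, 31, 20 and 22 of the 35 on the arrays of medium dams 46, 47, 48, 49 and 50, against 35, 35, 35, 32 and 34 on those of low dams 25, 27, 28, 31 and 36. The 20 genes above background on all 10 arrays had a median of -0.69, and the median of the 35 was -0.35 with slide as a fixed block. Its mean M was 1.67, 0.13, 0.03, -0.04 and -0.05 in medium dams 46, 47, 48, 49 and 50, against 1.71, 1.38, 0.69, 0.00 and 1.47 in low dams 25, 27, 28, 31 and 36. Each group held both high and low dams: 1 medium dam matched the highest low dam, and low dam 31 matched the 4 other medium dams. In the other groups the mean ranged from 0.30 to 1.71 in high dams and from -0.12 to 1.66 in control dams. Sln, sarcolipin of the atrial calcium pump, had 4.87, 1.91, 1.12, 0.67 and 0.46 in medium dams against 4.82, 4.24, 3.72, 1.46 and 4.67 in low dams, a difference of -1.98 ± 0.89 (SE; unadjusted p = 0.0377). Tnnt2, cardiac troponin T, differed by -1.50 ± 0.71, Ckmt2, the muscle mitochondrial creatine kinase, by -1.58 ± 0.73 and Myl3, a ventricular myosin light chain, by -1.12 ± 0.42 (SE). Ckmt2 and Myl3 were well above background on only 3 of the 5 medium arrays, so their differences rest in part on values not well above it.

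Fat genes followed a like order of dams. Their list mean was 2.67, 1.25, 0.79, 1.04 and 1.06 in medium dams against 3.26, 2.35, 1.35, 1.17 and 1.61 in low dams, with a median difference of -0.54 over 16 genes, 3 of which passed the filter through the low arrays alone. That median was -0.13 without low dam 25, -0.89 without medium dam 46 and -0.26 with slide as a fixed block. Car3, carbonic anhydrase 3, abundant in fat and muscle, differed by -1.80 ± 0.94, Cfd, the adipocyte protein adipsin, by -1.52 ± 0.91, Adipoq, the hormone adiponectin, by -1.33 ± 0.96 and Pck1, a gluconeogenic enzyme, by -0.93 ± 0.62 (SE), with Pck1 well above background on 3 and Adipoq on 4 of the 5 medium arrays. Liver genes, a list added after the values were seen, had a mean of 2.23, 0.51, 0.47, 0.53 and 0.56 in medium dams against 1.14, 1.93, 2.67, 0.57 and 0.64 in low dams. The high dams of that list, medium 46 and low 25, 27 and 28, were on slides 1 to 3, and the slide differences were 1.09, -1.42 and -2.20. The liver median of -0.55, over 37 genes of which 7 passed through the low arrays alone, was -0.18 without low dam 28 and -0.88 without medium dam 46. Mup1, a major urinary protein with near-identical copies, had 4.12, 1.08, 1.09, 1.06 and 1.93 in medium dams against 3.14, 4.26, 4.63, 1.79 and 1.47 in low dams. Ambp, a plasma protein precursor, differed by -0.90 ± 0.78, Cyp3a41a (listed as Cyp3a41) by -1.07 ± 0.94 and Cyp2e1 by -0.65 ± 0.35 (SE). Orm1, an acute phase protein made mostly by liver, had 0.68, -0.08, -0.13, -0.00 and -0.22 in medium dams against 1.56, 0.74, 1.07, -0.13 and 0.12 in low dams, a difference of -0.62 ± 0.28 (SE; unadjusted p = 0.0407), and was well above background on 3 medium and 4 low arrays. The dams with the highest Orm1 were those with high liver genes, and the part of that tissue in the Orm1 difference was not tested. Serpina3g, an acute phase list member found in leukocytes, differed by 0.43 ± 0.24 (SE).

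Smooth muscle genes lay lower by less than the heart genes. Of 21 measured, 19 lay below zero, 4 were lower at an unadjusted p under 0.05, and the median was -0.20. Over all genes 52.9% lay above zero and 1.34% were lower at that p. Tagln, transgelin of contractile cells, had 0.34, -0.28, -0.42, -0.50 and -0.68 in medium dams against 0.03, 0.36, 0.28, 0.08 and -0.16 in low dams, a difference of -0.43 ± 0.16 (SE; unadjusted p = 0.0131). Medium dam 46, the dam with high heart genes, was the only medium dam among the low ones. Acta2, smooth muscle actin, differed by -0.37 ± 0.17 and Kcnmb1, the beta subunit of a calcium-activated potassium channel, by -0.19 ± 0.08 (SE; unadjusted p = 0.0418 and 0.0244). Actc1, the cardiac actin, which is on both muscle lists, had 1.89, 0.28, 0.28, 0.21 and -0.34 in medium dams against 1.88, 1.45, 0.91, 0.50 and 1.59 in low dams. With slide as a fixed block Tagln differed by -0.27 (unadjusted p = 0.174) and the smooth muscle median was -0.13. Without medium dams 49 and 50 these were -0.24 (unadjusted p = 0.171) and -0.11, with scan day as a block -0.26 (unadjusted p = 0.145) and -0.12. With the means of the heart and liver lists as covariates, a setting added after the data were seen, they were -0.27 (unadjusted p = 0.0732) and -0.09, and without medium dam 46 the smooth muscle median was -0.32. The slide block and the scan day block also take medium dams 49 and 50 out of the difference. They are therefore not separate checks from leaving those dams out.

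**Figure D4:**
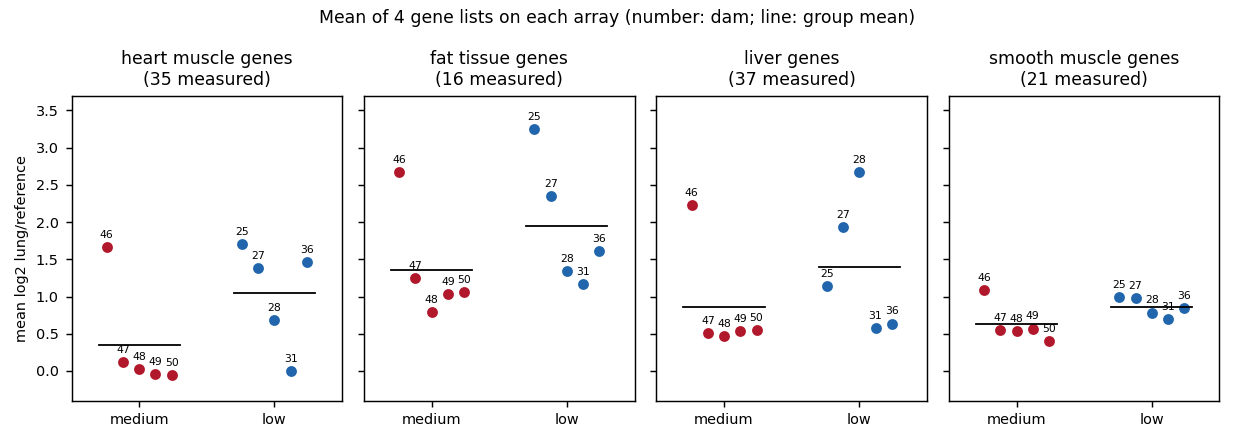
Mean M (y axis, log2 lung over reference) of the heart muscle, fat, liver and smooth muscle lists on each medium array (red, left) and low array (blue, right); numbers are dams and lines group means. Medium dam 46 stands with the high low dams in all 4 panels, and the other medium dams lie close together.

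The promoters of Actc1 and Myl3 are shown because both genes belong to the group with the largest differences and both hold a CArG box, the site of serum response factor in muscle genes, marked in capitals. Both windows hold 300 bases (GRCm38.p6, from RefSeq), Actc1 on the minus strand at chr2:114052826-114053125 and Myl3 on the plus strand at chr9:110763428-110763727.
Actc1 promoter: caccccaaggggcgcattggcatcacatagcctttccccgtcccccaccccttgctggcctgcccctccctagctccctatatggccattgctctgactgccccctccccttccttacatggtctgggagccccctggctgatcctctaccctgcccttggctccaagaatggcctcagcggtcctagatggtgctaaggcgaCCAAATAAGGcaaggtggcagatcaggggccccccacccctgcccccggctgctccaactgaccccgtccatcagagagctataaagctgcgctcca
Myl3 promoter: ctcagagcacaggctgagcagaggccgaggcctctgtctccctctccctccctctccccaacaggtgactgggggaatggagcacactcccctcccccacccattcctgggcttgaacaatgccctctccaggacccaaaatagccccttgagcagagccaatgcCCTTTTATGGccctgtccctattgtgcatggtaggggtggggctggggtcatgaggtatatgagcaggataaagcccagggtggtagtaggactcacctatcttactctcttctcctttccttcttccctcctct
A CArG box, which reads alike on both strands, occurs in 1.63% of all promoters of the table, in 4 of the 33 heart muscle genes with a promoter there and in 2 of the 17 smooth muscle genes. The match lies 47 bases before the start site in Actc1 and 85 bases before it in Myl3.

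The genes that passed the test at the high dose against the water control were then read in medium against low, where they rest on different arrays. High and control arrays shared slides and the estimate of the spread with them. Of the 97 genes higher at the high dose (0.493% of genes), 72 lay above zero in medium minus low, 5 at an unadjusted p under 0.05, and their median was 0.04. Of the 106 genes lower at the high dose (0.538%), 76 lay below zero, 7 lower and 1 higher at an unadjusted p under 0.05, with a median of -0.05. Over all genes 52.9% lay above zero in medium minus low, with 2.38% higher and 1.34% lower at that p. In the high against control comparison the medians of the 97 and the 106 genes were 0.36 and -0.40.

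The 97 genes higher at the high dose differed by 0.26 or less in size between medium and low. Cxcl5, a neutrophil chemokine, had -3.27, -3.32, -3.85, -3.60 and -3.28 in medium dams against -3.32, -3.40, -3.46, -3.61 and -3.39 in low dams, a difference of -0.03 ± 0.38 (SE; 95% interval -0.81 to 0.76), whereas high dams exceeded control dams by 3.01. It was well above background on 3 of the 5 medium arrays. Saa3 differed by -0.05 ± 0.44 (SE; 95% interval -0.96 to 0.85) where high exceeded control by 2.22. Ccl7, a monocyte chemokine, differed by -0.03 ± 0.24, Mmp12, macrophage elastase, by 0.03 ± 0.20, Noxo1, an organiser of NADPH oxidase, by 0.03 ± 0.19, and Lcn2, an iron-binding defence protein, by 0.16 ± 0.23 (SE). Trem2, a lipid receptor of macrophages, had -1.51, -1.26, -1.54, -1.50 and -1.38 in medium dams against -1.67, -1.63, -1.51, -1.61 and -1.79 in low dams, a difference of 0.20 ± 0.13 (SE). Ms4a7, a macrophage membrane protein, differed by 0.25 ± 0.17, Ly6f, a surface protein, by 0.21 ± 0.21, Clec5a, a myeloid lectin receptor, by 0.17 ± 0.14, and C3, the central complement protein, by 0.07 ± 0.15 (SE). Each of those intervals includes zero. The smallest unadjusted limma p of the 97 was that of Clcn6, 0.00144, at 0.20 ± 0.05 (SE; limma adjusted p = 0.997).

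Among genes lower at the high dose, Trpc6, a calcium-permeable channel, had 1.71, 1.94, 1.77, 1.98 and 1.42 in medium dams against 2.11, 2.12, 1.90, 2.23 and 2.07 in low dams, a difference of -0.32 ± 0.11 (SE; unadjusted p = 0.00789, limma adjusted p = 0.997). In order of dose its mean was 2.32 in control, 2.09 in low, 1.76 in medium and 1.64 in high dams, and the ranges of medium and low dams overlapped. Control above high was set by taking Trpc6 from this group of genes. It was also chosen with its medium and low values known, so this order was not a test of dose. The Ly49 receptor genes Klra8 and Klra10 differed by -0.24 ± 0.14 and -0.33 ± 0.16, Klrb1a, another natural killer receptor, by -0.14 ± 0.09, and Camp, a neutrophil peptide, by -0.28 ± 0.30 (SE). Siglecf, a marker of alveolar macrophages and eosinophils, differed by 0.06 ± 0.15 (SE). Treml4, a receptor of the TREM family, ran opposite to its high dose change, at 0.39 ± 0.14 (SE; unadjusted p = 0.0125).

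**Figure D5:**
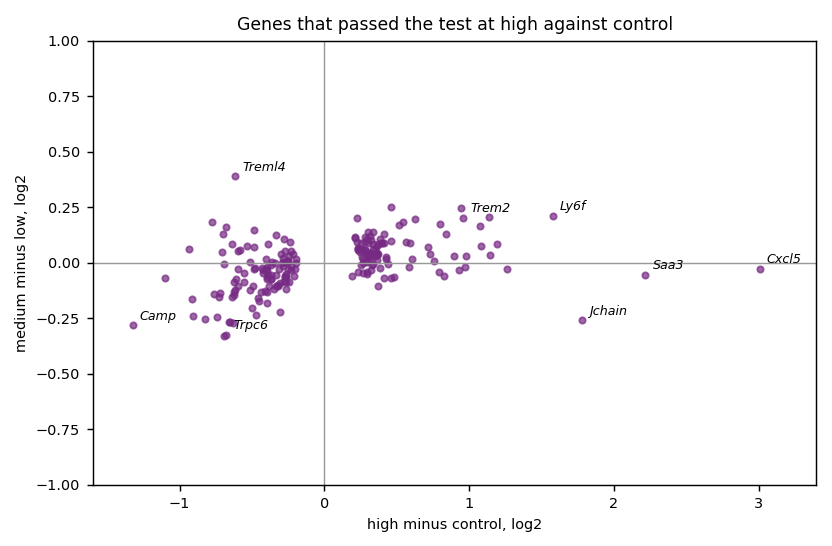
Medium minus low (y axis, log2) against high minus control (x axis, log2) for the 203 genes that passed the test at high against control; each point is a gene, and the axes have different scales. All values on the y axis lie between -0.33 and 0.39, also for Cxcl5 and Saa3, which lie farthest to the right.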

How the data were processed

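Per the labels' protocols, lung RNA of single dams was amplified, labelled with Cy5 and hybridised with Cy3-labelled universal reference RNA, with no dye swaps. The authors deposited scanner files, whose spot and background intensity values and log10 ratio come from Feature Extraction (9.5.1.1 or 10.1.1.1 per the file headers, 9.5.3.1 per the labels), and a value table of log2 Cy5 over Cy3, whose normalization step is not stated in the labels or headers. That table followed the ratio of median signals on every array. The table was used as deposited. Outlier spots were left out and spots of a probe averaged. Probes stayed in when Cy5 was well above background on 3 or more of the 5 arrays of the medium or the low group, with values on at least 16 of 20 arrays and at least 4 of each group, and the brightest probe stood for each gene name. Names follow a mouse gene table (GRCm38.p6): of 41174 probes, 22951 matched by accession, 6659 by symbol and 3109 by synonym, and 8455 kept the deposited name. One mean per group was fitted with limma 3.58.1 (R 4.3.3) over 20 arrays. Named genes were the 12 on each side with smallest p among those whose groups did not overlap, because none passed, and 3 per list; a few genes that met this rule are not reported here. Others were chosen after their values were seen. Dams are biological replicates, and their number limits precision. Members and lists were chosen with earlier results of these data known. Alternatives covered slides, normalization, filters, probes and leaving out single dams.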

Additional observations from a re-analysis of the deposited data

Results flagged for a closer look

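Values of 1 dam that stood far from the other 4 of its group by Dixon's ratio are given here; 31 of 286 groups of 5 were of this kind, and chance gives about 1 in 20 for independent groups, which these are not, since lists and genes overlap and share dams. Medium dam 46 accounted for 18 of the 31. It was the highest medium dam in the means of heart muscle (1.67), fat (2.67), liver (2.23) and smooth muscle genes (1.09), and in Ckmt2 (3.099), Tnnt2 (2.62), Myl3 (0.70), Actc1 (1.89), Ckm (0.61), Pck1 (2.31), Adipoq (3.62), Mup1 (4.12), Ambp (4.03), Cyp3a41a (4.13), Cyp2e1 (2.27), Orm1 (0.68) and Orm2 (1.16). It was the lowest in Mrc1 (3.27).

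Medium dam 47 was highest in Ngp (1.06) and in the mean of natural killer genes (1.86), and lowest in Zfp971 (-0.28). Medium dam 48 was lowest in the ribosomal protein mean (-0.63) and medium dam 50 highest in B4galnt4 (-0.94). Among low dams, dam 31 was lowest in Cdh5 (3.51) and highest in Zfp971 (0.35) and in the alveolar type 1 mean (3.16). Low dam 27 was lowest in Gngt2 (0.87) and Chil3 (5.17). Low dam 25 was lowest in Lrrc3 (-0.49) and highest in the mean of monocyte and lymphocyte chemokines (0.44), and low dam 28 was lowest in the mean of aryl hydrocarbon receptor genes (1.73).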

How the results depend on the processing

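limma called 0 genes higher and 0 lower under each of 31 alternatives, with a lowest adjusted p of 0.615. Counts at an unadjusted p under 0.05 ranged from 156 to 715 higher and from 120 to 526 lower. On the 12 arrays of the 3 shared slides, all doses included, with slide as a block they were 241 and 228, on the 6 medium and low arrays of those slides alone, without a block, 176 and 132, without medium dams 49 and 50 291 and 240, with Cy5 alone 156 and 120, with no filter on dim probes 655 and 503, with probes in place of genes 715 and 388, and with heart and liver means as covariates, added after the data were seen, 461 and 411. Leaving out 1 dam gave 324 to 577 higher and 185 to 526 lower. Without medium 46 and low 25, 27 and 28, also added later, they were 373 and 285, and the liver median was -0.09 and the heart median -0.61. The alternatives were followed for 104 of the genes described, and not for Sftpc, Clcn6, Treml4 and Klra10. Of the 104, 67 kept their sign under every alternative that measured them, Cyp1a1 between -1.33 and -0.57, and 37 changed it under at least 1. Of 39 list medians 10 kept their sign. The causes were not tested. No paired analysis was possible because the replicate numbers are animal numbers, none shared between groups; pairing by slide is the slide block above. Weak signal over background limits genes such as Kcnj5, Ckmt2 and Myl3 and many heart, fat and liver genes on the arrays of medium dams 49 and 50.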

Other observations

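Fkbp5, a gene induced by glucocorticoids, had -0.62, -0.68, -0.64, 0.81 and 0.58 in medium dams 46, 47, 48, 49 and 50, against -0.87, -0.64, -0.61, -0.60 and -0.50 in low dams 25, 27, 28, 31 and 36. Its 2 high values were those of the dams on the separate slide, and on the shared slides it differed by 0.25, -0.04 and -0.03. Among the 30 genes that varied most within groups, 9 were heart muscle genes, 4 fat genes and 11 liver genes.

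Lrat, which stores retinol as esters, differed by -0.29 ± 0.17, and Icos, a T cell costimulator, by -0.23 ± 0.14 (SE). Cxcr2 (listed as Il8rb), the neutrophil receptor of CXC chemokines, had 1.71, 2.72, 1.82, 1.40 and 1.504 in medium dams against 1.68, 1.22, 2.34, 1.69 and 1.44 in low dams, and C7 (listed as A530026G17), a protein of the complement pore, differed by -0.28 ± 0.17 (SE).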
